A study of Mus musculus with 13 samples.

Results

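Of 24015 genes in the deposited table, 8 were followed through all 13 libraries of mouse quadriceps RNA: Rrad, Gem and Rem1, small GTPases of the RGK family, Cacna1s, Cacnb1, Cacna2d1 and Cacng1, the subunits of the calcium channel of skeletal muscle, and Tmem37, a membrane protein related to the channel's gamma subunit. They were chosen by family and channel membership with measured values already known, above all the TPM of aged against young vehicle muscle of batch 1. Levels with age are therefore a description, without a test. The mice were C57BL/6, RNA came from lysates of the entire quadriceps, and every group had daily intraperitoneal injections for 4 weeks. Aged SW033291 mice of batch 2 (3 libraries, replicates 1, 4 and 6) were over 24 months old and had 5 mg/kg SW033291, a small molecule that blocks 15-PGDH, the enzyme that breaks down prostaglandin E2. Aged vehicle mice of batch 2 (3 libraries, replicates 2, 3 and 8) and of batch 1 (3 libraries, replicates 2, 3 and 4), also over 24 months old, had the carrier of ethanol, Cremophor and dextrose alone, as had young vehicle mice of batch 1 (4 libraries, replicates 1, 3, 4 and 5), which were 3 months old. Young mice are in batch 1 only and SW033291 mice in batch 2 only, so age was compared within batch 1 and SW033291 within batch 2. Whether the libraries come from separate animals is not stated in the labels, and the spread behind the p-values is that between libraries, which may be technical.

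The muscle calcium channel sits in the transverse tubule as the voltage sensor of excitation-contraction coupling. Its pore subunit is held in place and kept at the membrane by the beta subunit, while the alpha2-delta and gamma subunits tune trafficking and gating, and the voltage-driven movement of the pore subunit opens the ryanodine receptor of the sarcoplasmic reticulum. RGK GTPases bind beta subunits and strongly reduce calcium currents when made in excess. Rrad was first described in human skeletal muscle, and in mouse muscle its transcript is known to increase with denervation and injury.

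The values are TPM, relative transcript abundances scaled to transcript length and to 1 total per library, so levels of different genes can be set side by side, but the read depth is unknown from them and no counting error can be given. All gene values rest on names that were put back on their rows, since the deposited table had them displaced. The 10 fibre markers summed to 259934 to 311684 TPM in each library, and the 6 cardiomyocyte markers to 0.67 to 3.78 TPM, with Nppb and Myl7 listed at 0 in every library. Libraries of one group correlated at 0.947 to 0.991 across genes (Pearson's r of log2 values), the lowest with aged vehicle batch 1 replicate 4, where 9 of 9 neutrophil markers summed to 1761 TPM. The same sum was 6.33 to 232.1 TPM in SW033291 libraries and 7.56 to 777.7 TPM in aged vehicle libraries of batch 2. It was 0.87 to 1761 TPM in aged vehicle libraries of batch 1 and 0.88 to 2.92 TPM in young libraries, where S100a9, Camp, Ngp, Mpo and Elane were listed at 0. The 7 adipocyte markers, all detected, summed to 702.9 to 3513 TPM in SW033291 libraries, with the highest value in replicate 1, and to 520.9 to 749.3 TPM in aged vehicle libraries of batch 2. They summed to 650.9 to 1236 TPM in aged vehicle libraries of batch 1 and to 551.5 to 3039 TPM in young libraries. In bulk muscle, fewer cells of a type and less RNA per cell cannot be told apart.

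Sequence before the start site is shown for the pore subunit, whose level did not separate young from aged muscle, and for Tmem37, whose level did, because these were the windows in which a searched motif was found. RefSeq promoter windows of GRCm38.p6, from 250 bases before to 50 after the start, were matched for 5 of the 8 genes (6 windows), and Rrad, Gem and Cacng1 were not among them. Both strands were searched for the E-box CAGCTG that the MyoD family reads, for the TATA box TATAAA, for the AP-1 element TGANTCA and for MEF2's motif, which can share bases with the TATA box, and the capitals mark the match.
Cacna1s, chr1:136052561-136052749, plus strand, 250 to 62 bases before the RefSeq start: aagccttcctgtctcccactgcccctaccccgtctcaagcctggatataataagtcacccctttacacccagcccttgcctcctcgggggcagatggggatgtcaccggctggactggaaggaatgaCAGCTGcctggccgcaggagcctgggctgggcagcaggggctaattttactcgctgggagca
Tmem37, chr1:120073866-120073895, minus strand, 115 to 86 bases before the RefSeq start: ccagggcgctgcTGAGTCAgcgtaacccga
The first stretch ends where the earliest exon of Cacna1s in GENCODE M21 begins, and the second lies inside a GENCODE exon of Tmem37, whose annotated start is farther upstream. Of all 32851 windows of the same length, 16.3% held the E-box, 7.81% the AP-1 element, 3.19% MEF2's motif and 13.6% the TATA box. No match was found in the windows of Rem1, Cacna2d1 and Cacnb1. A match describes letters in the window and not a bound site, and a link between a match and the level with age was not tested.

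Rrad, which binds beta subunits and calmodulin, had the largest ratio between its highest and lowest group mean among the 8 genes. It stood at 22.3, 9.23 and 8.01 TPM in SW033291 libraries, against 12.5, 96.2 and 36.0 TPM in aged vehicle libraries of batch 2 (values here and below follow the replicate numbers given above). It stood at 10.1, 22.6 and 20.7 TPM in aged vehicle libraries of batch 1, against 1.62, 0.71, 1.20 and 2.59 TPM in young libraries. Every aged library, with or without SW033291, lay above every young one, and the 2 batch 2 groups overlapped. Group means were 13.2 ± 7.92 TPM with SW033291, 48.2 ± 43.1 TPM in aged vehicle of batch 2 and 17.8 ± 6.71 TPM in aged vehicle of batch 1 (SD, n = 3 each), and 1.53 ± 0.80 TPM in young muscle (SD, n = 4). The highest Rrad library, aged vehicle batch 2 replicate 3, had 7.56 TPM of neutrophil markers, the lowest sum of its group. In the library with the highest sum Rrad was 20.7 TPM, and the part of neutrophils in the Rrad values was not tested.

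The other RGK genes were near the limit of what was listed. Gem, first found in mitogen-stimulated human T cells, stood at 0.80, 1.04 and 0.30 TPM in SW033291 libraries, against 1.05, 0.54 and 0.56 TPM in aged vehicle libraries of batch 2. It was 0.19 to 1.01 TPM in aged vehicle libraries of batch 1, against 0.35 to 1.57 TPM in young libraries, and all 4 groups overlapped. Rem1, which also binds beta subunits, stood at 1.17, 0.75 and 1.75 TPM in SW033291 libraries, against 1.02, 0 and 0.81 TPM in aged vehicle libraries of batch 2. It was 1.79, 2.54 and 1.90 TPM in aged vehicle libraries of batch 1, against 1.40 to 2.70 TPM in young libraries. The 3 aged vehicle libraries of batch 2 were below all 3 of batch 1. Rem2, the fourth family member, was listed at 0 in all 13 libraries. On the log2(TPM + 1) scale used for the tests, differences of genes near 1 TPM are understated.

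**Figure D1:**
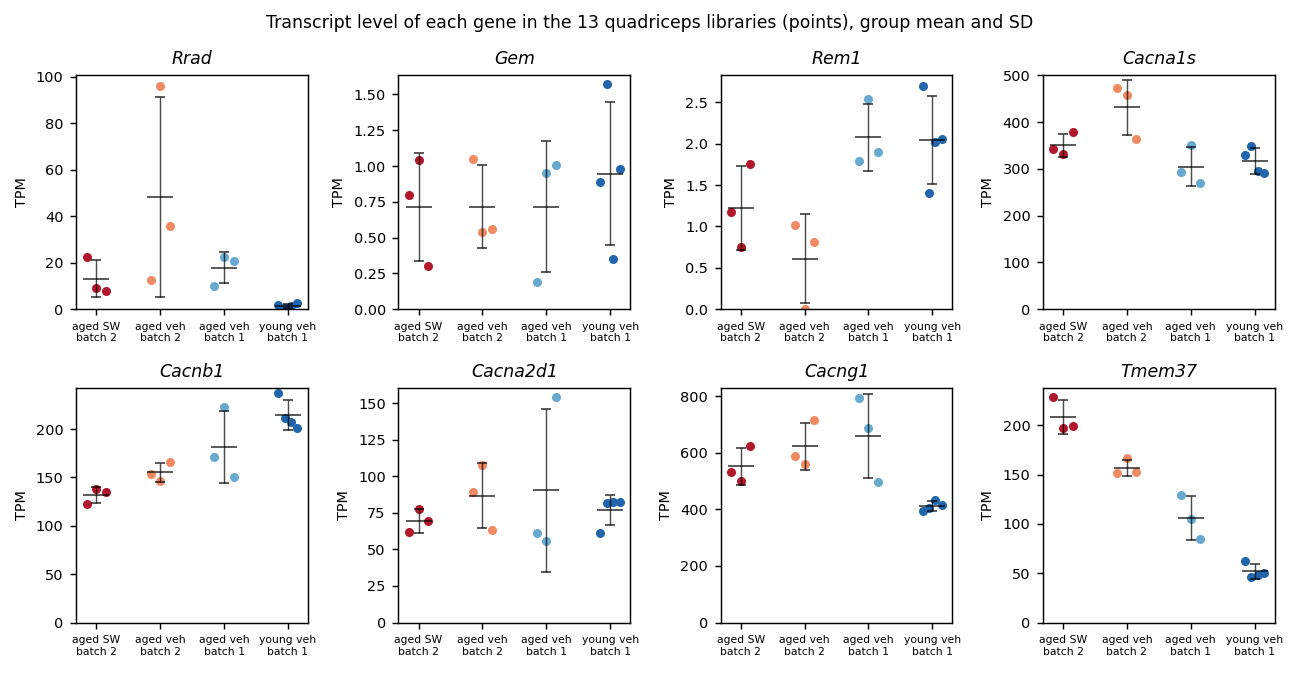
TPM of the 8 genes in each of the 13 libraries, with points for libraries and black marks for the group mean and SD, groups running left to right as SW033291, aged vehicle of batch 2, aged vehicle of batch 1 and young vehicle. Rrad, Cacng1 and Tmem37 lie above all 4 young libraries in each of the 9 aged libraries, and Gem and Rem1 stay below 3 TPM.

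The 4 subunits of the muscle channel were all abundant, and aged and young libraries were apart in Cacng1 but not in the other 3. Cacna1s, the pore and voltage sensor, stood at 341, 332 and 379 TPM in SW033291 libraries, against 472, 459 and 365 TPM in aged vehicle libraries of batch 2. It stood at 293, 350.2 and 271 TPM in aged vehicle libraries of batch 1, against 330.5, 349, 296 and 290.2 TPM in young libraries. Age groups of batch 1 overlapped, while all 3 aged vehicle libraries of batch 2 were above the 3 of batch 1. Cacnb1, the beta subunit that RGK GTPases bind, stood at 122, 138 and 135 TPM in SW033291 libraries, against 154, 146 and 166 TPM in aged vehicle libraries of batch 2. It was 171, 223 and 151 TPM in aged vehicle libraries of batch 1, against 237, 212, 207 and 201 TPM in young libraries. The SW033291 libraries were all below their vehicle libraries, and 1 of the 3 aged vehicle libraries of batch 1 reached the young range.

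Cacna2d1, the alpha2-delta subunit, stood at 61.7, 77.4 and 69.1 TPM in SW033291 libraries, against 89.5, 107 and 63.5 TPM in aged vehicle libraries of batch 2. It stood at 60.9, 55.5 and 154 TPM in aged vehicle libraries of batch 1, against 61.3, 82.0, 82.3 and 82.2 TPM in young libraries. The 154 TPM came from replicate 4, the library with 1761 TPM of neutrophil and 2105 TPM of erythroid markers. Its fibre transcripts departed both ways from the other aged vehicle libraries of batch 1. Acta1 was 24221 TPM, against 46887 and 50730 TPM, and Mylpf was 33619 TPM, against 28111 and 27162 TPM. Without replicate 4 the Cacna2d1 difference between aged and young muscle was -0.39 on the log2 scale, against 0.08 with that library. The part of blood cells or of the fibre shift in the value was not tested. Cacng1, the muscle gamma subunit, which lowers calcium entry through the channel, stood at 532, 499 and 625 TPM in SW033291 libraries, against 590.2, 560.5 and 717 TPM in aged vehicle libraries of batch 2. It stood at 792, 688 and 497 TPM in aged vehicle libraries of batch 1, against 395, 405, 434 and 414 TPM in young libraries. Cacng1 exceeded Cacna1s in every library.

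Tmem37, the membrane protein related to gamma subunits, stood at 229, 197 and 199 TPM in SW033291 libraries, against 152, 167 and 152 TPM in aged vehicle libraries of batch 2. It stood at 129, 105 and 84.9 TPM in aged vehicle libraries of batch 1, against 62.4, 46.7, 47.7 and 50.3 TPM in young libraries. No group overlapped with another. This order of 4 groups without overlap, SW033291 above aged vehicle of batch 2 above aged vehicle of batch 1 above young, was held by 1 of 11876 tested genes (0.00842%), Tmem37 itself, and the reverse order by 0. The order was chosen after its values were seen and includes the step between batches, so it is a description. Tmem37 averaged 208 ± 17.6 TPM with SW033291, 157 ± 8.26 TPM in aged vehicle of batch 2 and 106 ± 22.1 TPM in aged vehicle of batch 1 (SD, n = 3 each), and 51.8 ± 7.25 TPM in young muscle (SD, n = 4).

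Over all 13 libraries the order of mean levels was Cacng1 (549.9 TPM), Cacna1s (348 TPM), Cacnb1 (174 TPM), Tmem37 (125 TPM), Cacna2d1 (80.6 TPM), Rrad (18.7 TPM), Rem1 (1.53 TPM) and Gem (0.787 TPM). Tmem37 exceeded Cacnb1 in all 3 SW033291 libraries, overlapped with it in aged vehicle libraries of batch 2 and lay below it in all 7 libraries of batch 1. In young muscle the order of Tmem37 and Cacna2d1 was the other way, at 51.8 and 77.0 TPM. Over the 13 libraries their ranges overlapped, as did those of Cacna2d1 and Rrad, and of Rem1 and Gem. The 4 channel subunits summed to 1047 to 1208 TPM in SW033291 libraries, against 1273 to 1311 TPM in aged vehicle libraries of batch 2. They summed to 1073 to 1317 TPM in aged vehicle libraries of batch 1, against 988 to 1048 TPM in young libraries.

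Between aged and young vehicle muscle of batch 1, the largest difference among the 8 genes was that of Rrad, at 2.87 ± 0.54 on the log2(TPM + 1) scale (± is the standard error for all log2 differences), a ratio of mean TPM of 11.6. Tmem37 was higher in aged muscle by 1.01 ± 0.14, a ratio of 2.05, and Cacng1 by 0.65 ± 0.14, a ratio of 1.60. In these 3 of 8 genes each aged library exceeded each young one, and across all genes tested the groups did not overlap in 11.6% (8.85% higher, 2.7% lower in aged muscle). The remaining differences were 0.08 ± 0.29 for Cacna2d1, 0.02 ± 0.26 for Rem1, -0.06 ± 0.12 for Cacna1s, -0.18 ± 0.27 for Gem and -0.25 ± 0.12 for Cacnb1, and their groups overlapped. Of these 5 estimates, those of Cacna2d1 (-0.39 to 0.34), Rem1 (-0.47 to 0.25), Cacna1s (-0.16 to 0.19) and Gem (-0.44 to 0.088) had either sign, depending on the processing or the library left out. The median difference over all genes was 0.06. Across all genes, 54 of 11876 (0.455%) passed an adjusted p of 0.05 by limma in that comparison, 44 higher (0.37%) and 10 lower (0.0842%).

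The aged vehicle libraries of batch 2, whose levels are not part of those differences (they entered the shared estimate of the spread), also lay above the young libraries in the 3 genes. When the SW033291 libraries were counted too, Rrad, Cacng1 and Tmem37 were among 391 of 11876 genes (3.29%) with all 9 aged libraries above all 4 young ones. The young libraries are the same in both statements, and for batch 2 the step from young to aged includes the batch.

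The comparison of SW033291 with vehicle in aged muscle of batch 2 addressed what inhibition of 15-PGDH does to the aged muscle transcriptome. No gene of 11876 passed an adjusted p of 0.05 by limma (0 genes, 0%), while 1221 (10.3%) had an unadjusted p under 0.05, and the median difference over all genes was -0.13. In the authors' deposited table, 456 of 16666 genes with a p had an unadjusted p under 0.05, and adjusting that column left 1 gene. None of the 8 genes passed. Tmem37 had the one upward difference among the abundant members, 0.40 ± 0.15 (95% interval 0.09 to 0.72, adjusted p = 0.42 by limma), with all 3 SW033291 libraries above the 3 vehicle libraries. Rrad differed by -1.50 ± 0.57 (95% interval -2.73 to -0.27, adjusted p = 0.42 by limma), and 1 of 3 SW033291 libraries lay within the vehicle range. Without aged vehicle replicate 3, the library with 96.2 TPM, the Rrad difference was -0.79 (adjusted p = 0.72 by limma), and without vehicle replicate 2 it was -2.22. SW033291 replicate 1, with 3513 TPM of adipocyte markers, had the highest Rrad and Tmem37 values of its group, and the part of adipocytes in these values was not tested.

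The 4 channel subunits had negative estimates with SW033291, beside the -0.13 of the median gene. Cacnb1 differed by -0.24 ± 0.13 (adjusted p = 0.54 by limma), with all 3 SW033291 libraries below the vehicle libraries. Cacna1s differed by -0.29 ± 0.13 (adjusted p = 0.46), Cacna2d1 by -0.29 (adjusted p = 0.73) and Cacng1 by -0.17 (adjusted p = 0.68), each by limma and with overlapping groups. After median-of-ratios scaling, which brings the median gene to about 0, the estimates were -0.09 for Cacnb1, -0.14 for Cacna1s, -0.15 for Cacna2d1 and -0.02 for Cacng1. Rem1 differed by 0.50 (adjusted p = 0.54) and Gem by -0.02 (adjusted p = 0.99), also by limma, and the sign of Gem turned under other scalings (0.044 and 0.055). In 2 of 8 genes the groups did not overlap, against 17.1% of all genes tested (1.95% higher, 15.1% lower).

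Aged vehicle muscle was measured in both batches, which shows how far values of the same age and carrier moved with batch. By limma, 267 of 11876 genes (2.25%) passed, 204 higher in batch 2 (1.72%) and 63 lower (0.53%), and the median difference was 0.11. The count was 18 to 1643 with 1 library left out (18 without batch 1 replicate 2, 21 without batch 2 replicate 2 or 3, 478 without batch 2 replicate 8 and 1643 without batch 1 replicate 4) and 1 on the 6 libraries of the comparison alone, and after median-of-ratios scaling 46 of 144 were higher. None of the 8 genes passed. Tmem37 was at an adjusted p of 0.060 by limma with a difference of 0.58 ± 0.15, Cacna1s at 0.057 with 0.50 ± 0.13 and Rem1 at 0.080 with -0.99 ± 0.28, and in each the libraries of the 2 batches did not overlap, as in 16.5% of all genes (11.9% higher and 4.64% lower in batch 2). The Tmem37 estimate between batches, 0.58, stands beside its 0.40 with SW033291. The 2 comparisons share the vehicle libraries of batch 2, and the difference between them was not tested. Rrad differed by 1.03 ± 0.57 (adjusted p = 0.37 by limma), by 0.32 without batch 2 replicate 3 and by 1.75 without batch 2 replicate 2. Cacnb1 differed by -0.21 (adjusted p = 0.44 by limma). Gem, Cacna2d1 and Cacng1 had estimates of 0.03, 0.07 and -0.06, with signs that turned under other scalings (Gem at -0.02 and Cacna2d1 at -0.07 after median-of-ratios scaling, Cacng1 at 0.0023 after quantile normalisation).

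**Figure D2:**
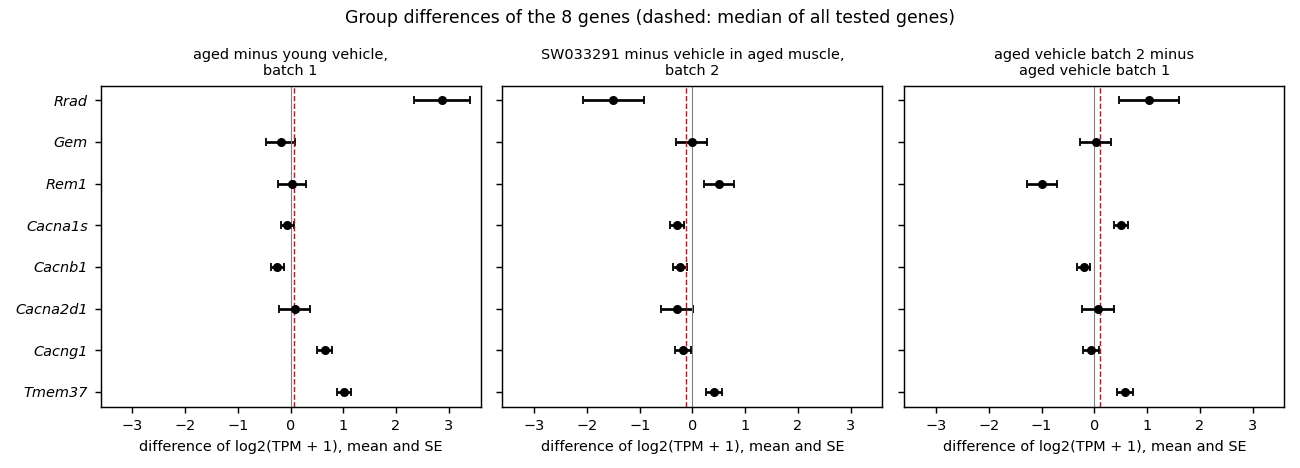
Differences on the log2(TPM + 1) scale (points) with their standard errors (bars) for the 8 genes in the 3 comparisons (aged against young vehicle, SW033291 against vehicle, batch 2 against batch 1), with a grey line at 0 and a dashed line at the median of all tested genes. The age panel is a description of values known when the genes were chosen, and Rrad has the widest bars, at 2.87 with age and -1.50 with SW033291.

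Ratios within a library need no common scale across libraries. Cacnb1 per 100 Cacna1s was 37.7 ± 3.45 in SW033291 libraries, 36.7 ± 7.70 in aged vehicle libraries of batch 2 and 59.2 ± 4.01 in those of batch 1 (SD, n = 3 each), and 67.9 ± 4.96 in young libraries (SD, n = 4). The values of the 6 batch 2 libraries, 31.9 to 45.6, lay below the 7 of batch 1, 55.8 to 71.7, so the beta to pore ratio separated the batches, while aged and young libraries of batch 1 overlapped. Rrad per 100 Cacnb1 was 10.3 ± 6.91 with SW033291, against 31.8 ± 30.1 in aged vehicle of batch 2, and 9.93 ± 3.90 in aged vehicle of batch 1, against 0.721 ± 0.404 in young muscle. Even at its highest, in aged vehicle batch 2 replicate 3, Rrad reached 65.7 transcripts per 100 of Cacnb1. Tmem37 per 100 Cacng1 was 31.9 to 43.0 with SW033291, against 21.3 to 29.7 in aged vehicle of batch 2, and 15.2 to 17.1 in aged vehicle of batch 1, against 11.0 to 15.8 in young muscle, where the highest young library lay within the aged range. These ratios were chosen after the levels were known and carry no test.

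**Figure D3:**
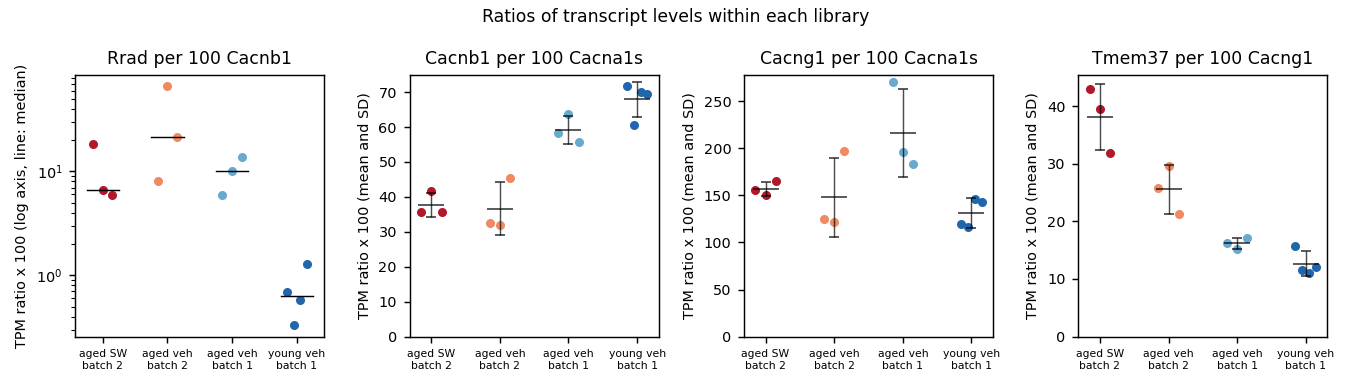
Ratios of TPM within each library, per 100 of the second gene, with points for libraries, in the same group order, black marks for the group mean and SD, and in the panel of Rrad, which has a log axis, lines for the group median. The 6 batch 2 libraries have 31.9 to 45.6 Cacnb1 per 100 Cacna1s, below the 55.8 to 71.7 of batch 1, and Rrad per 100 Cacnb1 is lowest in young libraries.

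The authors' deposited table for SW033291 against vehicle gave log2 fold changes of 0.55 (SE 0.15) for Tmem37 and -1.65 (SE 0.90) for Rrad. The unadjusted p of Tmem37 in the authors' deposited table was 0.000302, at rank 10 of 16666 genes with a p, and its Benjamini-Hochberg value computed here from that column was 0.459. The unadjusted p of Rrad in the authors' deposited table was 0.0682. Cacnb1 had -0.11 (SE 0.16), Cacna1s -0.16 (SE 0.12) and Cacng1 -0.02 (SE 0.16) in the authors' deposited table. The authors' deposited table for aged against young vehicle, which lists 813 genes (3.39% of those in the TPM table), held 3 of the 8 genes, with log2 fold changes of 4.13 (SE 0.63) for Rrad, 1.20 (SE 0.19) for Tmem37 and 0.53 (SE 0.19) for Cacng1. Which libraries entered either of them is not stated in their headers or in the labels.

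Genes whose log2 values were most like those of Rrad over the 13 libraries were Ubxn4 (Pearson's r = 0.964), Runx1 (0.950), Kcnq5 (0.934), Acsl6 (0.934) and Tpd52l2 (0.933). Runx1, a DNA-binding factor whose transcript increases in denervated mouse muscle, averaged 1.71 TPM with SW033291, against 2.67 TPM in aged vehicle of batch 2, and 1.88 TPM in aged vehicle of batch 1, against 0.388 TPM in young muscle. Runx1 is near the floor, at 0.24 to 0.54 TPM in young libraries, and a part of denervation in these values was not tested. Kcnq5, a potassium channel, averaged 5.59 TPM with SW033291, against 9.44 TPM in aged vehicle of batch 2, and 6.39 TPM in aged vehicle of batch 1, against 3.00 TPM in young muscle. The 13 points fall into 4 groups and share the age difference, so the measure was repeated on deviations from group means. There Ctps (0.930), Rab42 (0.918), Zfp93 (0.918), Ubxn4 (0.900) and Khdrbs3 (0.890) came first. Each set holds the highest r of all tested genes outside the members, and what such selection alone gives was not tested. Rab42 is near the floor, at 0.247 TPM with SW033291 and 1.01 TPM in aged vehicle of batch 2, its lowest and highest group means. Ubxn4, a protein of the endoplasmic reticulum membrane, was the one gene in both sets. Its means were 40.55 TPM with SW033291, 52.65 TPM in aged vehicle of batch 2, 41.65 TPM in aged vehicle of batch 1 and 30.44 TPM in young muscle. Among the members, Tmem37 had r = 0.734 with Rrad over the 13 libraries, Cacng1 0.659, Cacna1s 0.438, Cacna2d1 0.156, Gem -0.218, Cacnb1 -0.592 and Rem1 -0.626. On deviations from group means these were 0.115 for Tmem37, -0.298 for Cacng1, -0.149 for Cacna1s, 0.132 for Cacna2d1, -0.010 for Gem, -0.119 for Cacnb1 and -0.435 for Rem1.

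**Figure D4:**
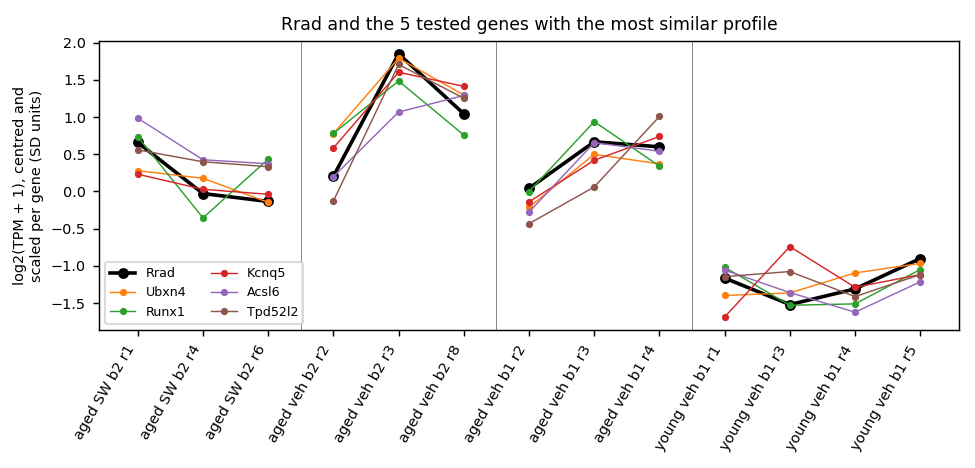
Levels as log2(TPM + 1), centred and scaled per gene to SD units, of Rrad and of the 5 genes most like it in each of the 13 libraries, in the same group order, with lines joining libraries of a group. The genes share the low young values, and the peak of Rrad at 96.2 TPM in aged vehicle batch 2 replicate 3 is also the highest library of Ubxn4, Runx1, Kcnq5 and Tpd52l2.

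Of 23 other voltage-gated calcium channel genes, 7 reached 1 TPM in 3 libraries, with Tmem37 among them. Cacng6, a gamma subunit of muscle, averaged 142 TPM over the libraries, Cacng7 19.7 TPM and Cacna2d4, an alpha2-delta subunit, 2.08 TPM. Cacna1i, a T-type pore, was chosen after its values were seen, so its age difference is described without a test. It stood at 0.47 to 2.09 TPM in aged vehicle libraries of batch 1, against 0.05 to 0.22 TPM in young libraries. The difference was 0.87 ± 0.27 on the log2(TPM + 1) scale (0.57 to 2.38 across the alternatives), which understates differences near 1 TPM. The authors' deposited table gave 3.02 (SE 0.47). In the triad and excitation-contraction coupling list, 19 of 20 genes were tested, led in level by Casq1, the calcium store protein, at 3249 TPM and Tmem38a at 1464 TPM. None of its 19 genes passed with age or with SW033291 by limma, with medians of -0.05 and -0.19 beside 0.06 and -0.13 over all genes. With age, Casq1 and Sypl2 were near the threshold by limma, at -0.53 and -0.74 (adjusted p = 0.060 each). The authors' deposited table had them at -0.59 (adjusted p = 0.0024) and -0.71 (adjusted p = 0.010). There, 2 of the 20 listed genes (10%) were under 0.05, beside 2.14% of all genes. Sypl2 was named because it was under 0.05 there, so its value in that table is a description and no second test. In batch 2, 3 of the 19 rose relative to batch 1 by limma, against 1.72% of all genes: Ryr1, the ryanodine receptor, by 0.88 (adjusted p = 0.010), Srl, sarcalumenin, by 0.63 (adjusted p = 0.013) and Dysf, a membrane repair protein, by 0.71 (adjusted p = 0.028). Without aged vehicle batch 2 replicates 2 or 3 or batch 1 replicate 2, each taken out in turn, none of the 3 passed, with adjusted p of 0.055, 0.061 and 0.059 for Ryr1. None of the 3 passed on the 6 libraries of the comparison alone (Ryr1 at an adjusted p of 0.20), and Dysf did not pass after median-of-ratios scaling (adjusted p = 0.092).

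Of the 4 store-operated calcium entry genes tested, 0 passed with age and 0 with SW033291 by limma, and Stim2, a calcium sensor of the reticulum, rose in batch 2 relative to batch 1 by 0.66 (adjusted p = 0.041), 1 of 4 beside 1.72% of all genes higher. Of 17 tested binding partners of RGK GTPases, which include calmodulins, 14-3-3 proteins and calmodulin-dependent kinases, 0 passed with age and 0 with SW033291 by limma, and Camk2g, a calmodulin-dependent kinase, rose in batch 2 by 0.47 (adjusted p = 0.038 by limma), 1 of 17 beside the same share. With age, the authors' deposited table had the kinases Camk2a at -0.41 (adjusted p = 0.027) and Camk2b at 0.46 (adjusted p = 0.030). These were 2 of the 18 listed binding partners (11.1%) under 0.05 there, beside 2.14% of all genes. Both were named for passing there, so the values are a description. Between batches, neither Stim2 nor Camk2g passed under median-of-ratios scaling, at adjusted p of 0.15 and 0.14 by limma. Adjusted p for the pair missed the threshold without batch 2 replicate 2 (0.086 and 0.14), batch 2 replicate 3 (0.17 and 0.16) or batch 1 replicate 2 (0.11 and 0.16), and Stim2 not without batch 2 replicate 8 (0.067) or batch 1 replicate 3 (0.099) either. Of 15 tested immediate early genes, 13 had positive estimates in aged against young muscle, with a median of 0.46 beside 0.06 over all genes, where 61.2% of genes were positive, and 0 passed by limma. The authors' deposited table had Junb at 0.94 (adjusted p = 0.0030) and Egr1 at 1.12 (adjusted p = 0.019) with age. They were 2 of the 18 listed immediate early genes (11.1%) under 0.05 there, beside 2.14% of all genes, and were named for it. With SW033291, 5 of the 15 were positive, where 28.9% of all genes were, and 0 passed by limma, with a median of -0.21 beside -0.13 over all genes.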

How the data were processed

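RNA of whole quadriceps was measured in 13 libraries, grouped by the labels into 4 groups. The build mm9 and the tools STAR, RSEM, DESeq2 and DESeq are named in the submitters' processing notes (versions and order: not given in the sources used here). TPM for 24015 genes were deposited by the authors, and since read counts were not used here, depth and counting error are unknown. Per the file headers, the authors' 2 comparison tables hold log2 fold changes and their standard errors, unadjusted p-values, the test statistic (a score) and each gene's mean normalised count (a signal). The age table lists 813 genes, none with an adjusted p above 0.0999.

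In the deposited TPM table, gene names stood beside values of other genes. Undoing 27 spreadsheet dates and sorting all names in byte order put them back. Across genes, the log2 differences of SW033291 then had a Pearson correlation of 0.928 with the authors' deposited table, against -0.012 with the names as they stood and 0.090 and 0.087 with names moved by 1 place.

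The tests used limma 3.58.1 (R 4.3.3) on log2(TPM + 1). A gene had to reach 1 TPM in 3 libraries, which 11876 genes did, among them the 8 described, Gem and Rem1 being close to that level. The model had 1 coefficient per group over all 13 libraries, a trend on expression and Benjamini-Hochberg adjustment over all genes (threshold 0.05). The fit was tested on simulated data. The members and lists were chosen with earlier results of these data known. Genes named were the members and, of each of the 7 pathway lists, the genes that passed in any comparison. The 4 of each list with the highest mean TPM were named too, and the text gives values for some of these. Outside this rule, Cacna1i was added after its values were seen. Sypl2, Camk2a, Camk2b, Junb and Egr1 were also added outside the rule because they were under 0.05 with age in the authors' deposited table. Their values there are descriptions. Likeness was Pearson's r of log2(TPM + 1). In GENCODE M21, exons of Rrad, Cacna1s and Cacnb1 overlap antisense transcripts, whose reads an unstranded kit cannot tell apart. Alternatives were the pseudocount (0.1, 0.5), no filter, 2 scalings, removal of the 20 most abundant genes, robust moderation, a replicate block, comparison libraries alone, pooled batches and leaving out each library.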

Additional observations from a re-analysis of the deposited data

Results flagged for a closer look

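In the young group, the one group large enough for this check, 39 values were examined for 1 library standing apart, and 2 were found, where chance gives about 5% of groups. Cacna2d1, the alpha2-delta subunit, was 61.3 TPM in young vehicle replicate 1, against 82.0 to 82.3 TPM in the other 3 young libraries. Bin1, which shapes the transverse tubule, was 640.3 TPM in young vehicle replicate 3, against 719 to 725 TPM in the other 3.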

How the results depend on the processing

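For SW033291 and batch, 464 values of single genes were recomputed under an alternative: 400 kept their direction and side of the threshold, 32 no longer passed, 7 newly passed and 25 changed sign. For age, described without a test, 260 of 272 values moved by less than the spread between replicates and 12 by more, and 30 of the 272 changed sign. Aged against young counted 54 genes, 27 with no filter, 24 on its own libraries, 297 with both batches pooled and 19 to 92 without 1 library (92 without aged replicate 4); higher and lower calls were 44 and 10, but 36 and 20 after median-of-ratios scaling, 41 and 30 after quantile normalisation and 35 and 28 without the 20 most abundant genes. SW033291 against vehicle counted 0, 4 with a pseudocount of 0.1, and 0 to 1 without 1 library. Batch 2 against batch 1 counted 267, 144 (46 higher) after median-of-ratios scaling, 98 (53 higher) after quantile normalisation, 1 on its own libraries and 18 to 1643 without 1 library (1643 without batch 1 replicate 4). Signs turned for Gem with SW033291 (0.044 after median-of-ratios scaling, 0.055 after quantile normalisation, and -0.15 to 0.17 without 1 library) and between batches, with the values in the same order, for Gem (-0.016, and -0.22 to 0.16), Cacna2d1 (-0.070, -0.0064, and -0.19 to 0.54), Cacng1 (0.0023 by quantile, and -0.25 to 0.082), Cacng6 (-0.14 to 0.051), Cacng7 (-0.13, -0.14, and -0.10 to 0.061) and Cacna1i (-0.080 to 0.46, and -0.11 to 0.28 with SW033291); the cause was not tested. Between batches, Cacna1s passed under 5 alternatives (adjusted p 0.024 to 0.047 by limma) and Rem1 without batch 1 replicate 4 (0.048).

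Replicate numbers shared by 2 libraries a group do not show pairing: same-numbered deviations correlated at 0.171 and 0.040 for age and at -0.147 and -0.060 between batches. With the replicate block the counts were 6 for age and 905 between batches, where Cacna2d1 passed at 0.74 (adjusted p 0.035 by limma), Cacng7 was at -0.0064 and Cacna1i at -0.0061. No paired analysis was possible for SW033291 because its libraries share no number with their vehicle libraries.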
